A study of Rattus norvegicus with 2 samples.

Results

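The genes that drive and carry out cell division were followed in the hypothalamus of female Sprague Dawley rats at PND 29. Of 34 cell cycle genes on the list, 33 were found by their symbol among the 32883 genes of the deposited files, and *Ccnb2* was not found under that name. The genes were listed by name, and the rule uses no measured value, but the list was made with earlier results of these data known. A unique molecular identifier (UMI) is the tag that marks each captured RNA molecule. A cell was counted when at least 5 of the 33 genes had at least 1 UMI. This held for 259 of 4296 Control cells and 281 of 4379 SC300 cells.

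The hypothalamus, with the AVPV and the ARC in it, was dissociated with collagenase, and single cells were sequenced from the 3′ end with a droplet method. SC300 rats received a silicone capsule with 300 µg estradiol benzoate (EB) at PND 0.5. Control rats are called intact by the sample labels, while the methods describe a capsule with oil. Each group is a single library from the pooled tissue of 3 rats, so that the spread between rats is unknown and no test between Control and SC300 was made.

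Cells divide in a fixed order of steps. In S phase the MCM helicase opens the DNA, PCNA holds the polymerases on it, and ribonucleotide reductase and thymidylate synthase supply the nucleotides. In G2 and mitosis, CDK1 with the A and B cyclins starts chromosome condensation, kinesins and Aurora kinases build the spindle, the BUB and TTK kinases hold the cell until every chromosome is attached, and the ubiquitin ligase APC/C with CDC20 and UBE2C ends mitosis. The transcripts of mitosis are known to be made mainly in cells that divide, while PCNA and ribonucleotide reductase also serve DNA repair in cells that do not. In the young brain, oligodendrocyte precursors are the most widespread cells that still divide.

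The kept cells held 51382276 UMIs in Control and 56390355 UMIs in SC300, with medians of 7986 and 8182 UMIs per cell. The median mitochondrial share was 11.4% in Control and 12.4% in SC300. Scrublet called 55 Control cells (1.28%) and 63 SC300 cells (1.44%) as doublets, and these were kept unless stated. The libraries shared 7 barcode sequences among the kept cells. Values in parentheses after a share, a level or a ratio are exact 95% intervals. They cover counting error only, and since most of the UMIs of mitosis genes sat in few cells, the intervals of levels and of ratios of levels are narrower than the spread between cells. A level is given as CPM, for which the UMIs of a gene in a class of cells were divided by all UMIs of that class and scaled to the same total for every class. Levels are compared between classes and libraries, and not between genes. Ratios are log2 of SC300 over Control.

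The share of cells with at least 5 of the genes was 6.03% (5.34–6.78) in Control and 6.42% (5.71–7.18) in SC300. The log2 ratio was 0.09 (−0.16 to 0.34). At least 10 of the genes were found in 38 Control cells (0.885%, 0.627–1.21) and 44 SC300 cells (1.00%, 0.731–1.35), a log2 ratio of 0.18 (−0.48 to 0.85). Both intervals include 0 on counting error alone, and with 1 library per group a difference between the conditions could not be tested. Just below and at the limit of 5, exactly 4 genes were found in 279 Control and 260 SC300 cells, and exactly 5 in 121 and 123 cells. With the depth of every cell lowered to 2000 UMIs by random thinning, 28 of 3927 cells in Control and 36 of 4190 in SC300 kept at least 5 genes, with 369 and 189 shallower cells left out. The log2 ratio was then 0.27 (−0.48 to 1.04).

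**Figure D1:**
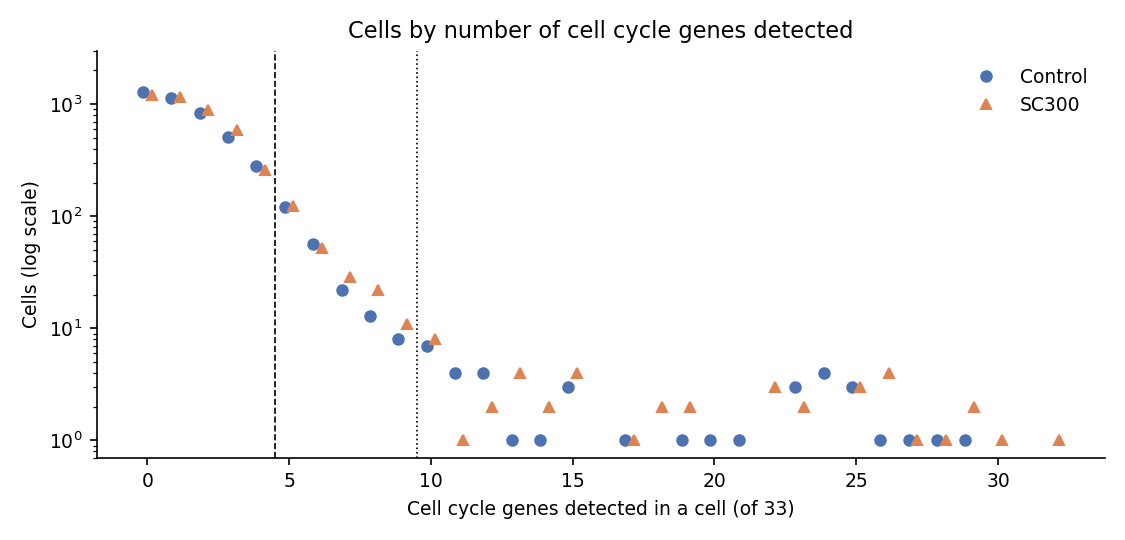
Number of cells (y axis, log scale) by the number of the 33 cell cycle genes detected in a cell (x axis), for Control (circles) and SC300 (triangles), with the symbols set slightly apart for each library. The dashed line marks the limit of 5 genes and the dotted line that of 10, and single cells reach up to 29 genes in Control and 32 in SC300.

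The limit of 5 genes took in cells of more than 1 kind. As a group, the cells with 5 to 9 genes, 221 in Control and 237 in SC300, were deeper than the rest. These cells had medians of 24088 and 23703 UMIs, against 7619 and 7896 UMIs in cells with 0 to 4 genes. They had a median of 4 S phase genes and 2 genes of G2 and mitosis in both libraries, and few of them carried *Mki67* or *Top2a*. *Pcna* had a UMI in 95% of these Control cells and 94.1% of these SC300 cells, and *Rrm1*, the large subunit of ribonucleotide reductase, in 70.1% and 66.2%. *Mki67*, the gene of the Ki-67 protein that coats mitotic chromosomes, had a UMI in 7.24% and 6.75%. *Top2a*, the topoisomerase that untangles replicated DNA, had one in 3.17% and 1.27%.

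The cells with 10 or more genes had medians of 11114.5 UMIs in Control and 11309 UMIs in SC300, and their content was different. *Mki67* was found in 71.1% of them in Control and 70.5% in SC300, *Top2a* in 63.2% and 61.4%, and *Cdk1*, the kinase that starts mitosis, in 78.9% and 86.4%. The summed level of the genes of G2 and mitosis was 1961 CPM in Control and 2227 CPM in SC300, against 78.2 and 81.4 CPM in cells with 5 to 9 genes and 38.8 and 35.5 CPM in cells with 0 to 4. The cells were banded by these same genes, so these values are a description. The limit of 5 is not read here as a count of dividing cells.

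The genes fell into groups by where their UMIs sat. For 14 genes, at least 50% of all UMIs lay in the cells with 10 or more genes, in both libraries. They were *Mki67*, *Top2a*, *Cdk1*, *Cenpf*, *Ube2c*, *Ccnb1*, *Ccna2*, *Bub1*, *Bub1b*, *Kif11*, *Kif20a*, *Nusap1*, *Tpx2* and *Rrm2*, and *Rrm2*, the small subunit of ribonucleotide reductase, was the only S phase gene among them. *Top2a* had 95.1% of its UMIs in these cells in Control and 96% in SC300. *Nusap1*, a binder of spindle microtubules, had 94.4% and 92.5%.

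For 10 genes the share was under 25% in both libraries. *Mcm2*, *Mcm3*, *Mcm4*, *Mcm7*, *Pcna*, *Rrm1*, *Tyms* and *Ccne1* are S phase genes, and *Aurka* and *Ttk* are mitotic kinases. *Pcna* had 4.94% of its UMIs in the cells with 10 or more genes in Control and 6.64% in SC300, and *Mcm7*, a subunit of the MCM helicase, had 8.99% and 8.49%. *Aurka*, the kinase of the spindle poles, had 6.37% and 9.58%, and *Ttk*, a kinase of the spindle checkpoint, had 10.6% and 11.2%. The remaining 9 genes (*Cenpe*, *Birc5*, *Aurkb*, *Kif23*, *Plk1*, *Cdc20*, *Mcm5*, *Mcm6* and *Cdca8*) lay between these limits or differed between the libraries. The groups were set after the values had been seen and are used as a description only.

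Promoters of cell cycle genes are known to carry short motifs that time their transcription. The cell cycle homology region (CHR, TTTGAA or TTTAAA) and the CCAAT box are typical of genes of G2 and mitosis, and E2F sites (TTTCCCGC, TTTCGCGC, TTTGCCGC or TTTGGCGC) of genes of S phase. RefSeq windows of the GRCr8 build, from 250 bases before to 50 bases after the start of the gene, were found for 28 of the 34 listed genes and searched on both strands. TTTAAA reads alike on both strands and was counted once, and a window could count for several motifs. A CHR was present in 21 of the 28 windows (75%), against 27.9% of all 27457 windows. A CCAAT box was present in 22 (78.6%) against 37.7%, and an E2F site in 7 (25%) against 2.25%. Both a CHR and a CCAAT box were present in 16 (57.1%) against 11.1%. These shares describe letters, and no binding was measured.

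The same letters were counted in the groups set by UMIs. Of the 14 genes with most UMIs in cells with 10 or more genes, 10 had a window, and a CHR was found in all 10 of these, a CCAAT box in 8 and an E2F site in 1. Of the 10 genes with few UMIs there, 9 had a window, and the numbers were 4, 5 and 4. The window of *Aurka* is counted among these, although it may not hold the promoter, as described below. A CHR together with a CCAAT box was found in 8 windows of the first group and in 1 of the second, that of *Ttk*. Of the remaining 9 genes, 8 had a window, with a CHR in 6, a CCAAT box in 8 and both in 6. The groups also differed in phase, as 1 of the 14 genes and 8 of the 10 were S phase genes. Whether the motifs go with the place of the UMIs apart from the phase was not tested.

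Windows of 6 genes are printed from 5′ to 3′ on the strand of the gene, to show the layouts that the counts stand for. *Top2a* (chr10:84473044-84473343, minus strand), *Cdk1* (chr20:19265043-19265342, plus strand) and *Ccnb1* (chr2:33655176-33655475, minus strand) stand for the genes with most UMIs in cells with 10 or more genes. *Mcm7* (chr12:22163129-22163428, minus strand) is 1 of the replication genes that were spread over many cells, and these did not share 1 layout. The windows of *Pcna*, *Rrm1* and *Ccne1* held no E2F site, and that of *Mcm2* held 2 CHRs. *Aurka* (chr3:181560720-181561019, minus strand) and *Ttk* (chr8:93634389-93634688, plus strand) are the mitotic kinases that stood apart. Capitals mark the CHR, CCAAT and E2F letters on either strand.
Top2a: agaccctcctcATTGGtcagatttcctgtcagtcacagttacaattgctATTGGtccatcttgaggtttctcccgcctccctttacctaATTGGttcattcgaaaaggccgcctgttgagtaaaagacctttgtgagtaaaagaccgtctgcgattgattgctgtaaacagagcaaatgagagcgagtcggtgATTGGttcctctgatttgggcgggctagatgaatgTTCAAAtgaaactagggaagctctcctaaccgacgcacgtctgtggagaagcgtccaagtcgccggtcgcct
Cdk1: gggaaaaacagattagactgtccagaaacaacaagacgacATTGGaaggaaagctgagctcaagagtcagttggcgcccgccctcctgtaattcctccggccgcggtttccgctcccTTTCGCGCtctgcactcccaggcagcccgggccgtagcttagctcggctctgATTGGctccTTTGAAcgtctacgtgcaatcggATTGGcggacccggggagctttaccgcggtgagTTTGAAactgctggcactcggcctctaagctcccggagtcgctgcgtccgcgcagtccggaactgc
Ccnb1: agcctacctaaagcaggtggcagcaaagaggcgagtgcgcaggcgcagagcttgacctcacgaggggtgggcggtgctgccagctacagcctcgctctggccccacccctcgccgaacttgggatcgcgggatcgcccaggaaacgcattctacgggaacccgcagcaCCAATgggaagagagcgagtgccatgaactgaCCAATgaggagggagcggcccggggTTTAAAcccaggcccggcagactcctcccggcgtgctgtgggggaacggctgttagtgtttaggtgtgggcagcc
Mcm7: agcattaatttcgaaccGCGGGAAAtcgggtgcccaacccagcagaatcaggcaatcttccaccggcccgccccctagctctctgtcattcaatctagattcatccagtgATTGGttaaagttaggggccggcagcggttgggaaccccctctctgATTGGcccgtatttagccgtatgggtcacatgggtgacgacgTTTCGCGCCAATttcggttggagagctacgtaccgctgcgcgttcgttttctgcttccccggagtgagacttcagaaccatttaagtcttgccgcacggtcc
Aurka: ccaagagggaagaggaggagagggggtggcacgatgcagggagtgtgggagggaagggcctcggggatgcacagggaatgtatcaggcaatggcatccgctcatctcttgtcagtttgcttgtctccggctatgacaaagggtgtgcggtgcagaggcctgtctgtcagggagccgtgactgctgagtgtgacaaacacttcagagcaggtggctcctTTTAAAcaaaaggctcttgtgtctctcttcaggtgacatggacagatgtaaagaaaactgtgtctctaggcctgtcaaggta
Ttk: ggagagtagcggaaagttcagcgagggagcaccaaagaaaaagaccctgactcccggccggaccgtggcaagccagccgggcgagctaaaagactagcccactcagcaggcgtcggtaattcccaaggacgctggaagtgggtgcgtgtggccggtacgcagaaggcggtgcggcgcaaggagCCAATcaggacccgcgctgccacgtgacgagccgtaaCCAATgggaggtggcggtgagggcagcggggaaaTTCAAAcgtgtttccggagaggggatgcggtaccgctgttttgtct
Counted from the start of the gene, the CHR began at position −22 in *Top2a*, at −72 and −16 in *Cdk1* and at −25 in *Ccnb1*, and these windows held 4, 3 and 2 CCAAT boxes. *Cdk1* also had an E2F site at −133. The window of *Mcm7* had no CHR, 3 CCAAT boxes, and E2F sites at −233 and −52, the second of which shares a base with a CCAAT box. *Aurka* had a CHR at −32 and no CCAAT box, while *Ttk* had a CHR at 5 and CCAAT boxes at −67 and −30. The letters just before the annotated start of *Aurka* read like the end of an intron, so its window may not hold the promoter. Whether transcription starts at the annotated starts was not tested.

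Cells were placed into classes by marker genes, with no cell cycle gene among the markers. The endothelial and mural classes, and the ependymal and tanycyte classes, were joined after the data had been seen. Oligodendrocyte precursor-like cells numbered 364 in Control and 369 in SC300. They had the highest share of cells with 10 or more genes among the 8 classes with at least 100 cells in each library. In Control 21 of them (5.77%, 3.61–8.68) and in SC300 25 (6.78%, 4.43–9.84) reached 10 genes, which was 55.3% of all such Control cells and 56.8% of all such SC300 cells. Their median depth was 6376 UMIs in Control and 6840 UMIs in SC300, below that of most other classes.

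At least 5 genes were found in 46 Control (12.6%, 9.40–16.5) and 66 SC300 precursor-like cells (17.9%, 14.1–22.2). The log2 ratio was 0.50 (−0.06 to 1.08), and for the limit of 10 genes it was 0.23 (−0.66 to 1.14). In thinned cells, 21 of 348 Control and 26 of 363 SC300 precursor-like cells kept at least 5 genes, a log2 ratio of 0.25 (−0.64 to 1.15). The SC300 share was the higher one at these limits, and every one of these intervals included 0. In clusters made with 42 cell cycle genes left out, cluster 10, still led by *Nusap1* and *Cdk1* among others, held most precursor-like cells with 10 or more genes, 19 of 21 in Control and 23 of 25 in SC300. It had 50 Control and 44 SC300 cells in all, of which 37 and 39 were precursor-like by markers. The mitochondrial share moved with this result. Among precursor-like cells with up to 10% mitochondrial UMIs, at least 5 genes were found in 18 of 149 in Control (12.1%, 7.32–18.4). In SC300 they were found in 24 of 87 (27.6%, 18.5–38.2), a log2 ratio of 1.19. These intervals of the shares did not meet, on counting error alone. At the limit of 10 genes the same cells gave 11 of 149 (7.38%, 3.74–12.8) and 9 of 87 (10.3%, 4.84–18.7), with intervals that overlapped. Above 10% mitochondrial UMIs, at least 5 genes were found in 28 of 215 (13%, 8.83–18.3) and 42 of 282 (14.9%, 10.9–19.6). The part of the mitochondrial share in the result was not tested.

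Of endothelial or mural-like cells, 5 of 504 in Control (0.992%) and 9 of 473 in SC300 (1.90%) had 10 or more genes, with medians of all cells of the class of 8013.5 and 9082 UMIs. At least 5 genes were found in 38 such cells in Control (7.54%, 5.39–10.2) and 53 in SC300 (11.2%, 8.51–14.4). The log2 ratio was 0.57 (−0.06 to 1.21). Of these cells, 7 in Control and 10 in SC300 lay in cluster 5, led by *Hbb* and other haemoglobin genes. Cells of the class in cluster 5 had medians of 23999 and 24654.5 UMIs, and 0 of them reached 10 genes. In thinned cells of the whole class 2 of 475 and 5 of 450 kept 5 genes, with a log2 ratio of 1.40 (−1.21 to 4.79). In ependymal or tanycyte-like cells at least 5 genes were found in 53 of 332 Control cells (16.0%) and 38 of 214 SC300 cells (17.8%), and 10 genes in 6 cells of each library. The latter had medians of 82933.5 and 103550 UMIs, and in thinned ependymal or tanycyte-like cells only 1 cell of each library kept 5 genes. The cells with 10 or more genes had up to 12 of them in Control and up to 30 in SC300. At least 10 genes of mitosis were found in 0 of these Control cells and in 1 of these SC300 cells. The log2 ratio of the share with at least 5 genes in this class was 0.15 (−0.49 to 0.78), and −1.87 in cells with up to 10% mitochondrial UMIs. The value of −1.87 rests on a smaller part of the class and is given without an interval. Clusters 0 and 12, the main clusters of the class, had median mitochondrial shares of 19.2% and 13.6%.

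Neurons and mature oligodendrocytes no longer divide, and they gave the background of the count. At least 5 genes were found in 43 of 457 Control (9.41%) and 31 of 459 SC300 neuron-like cells (6.75%), whose medians were 25233 and 23216 UMIs. Mature oligodendrocyte-like cells gave 24 of 380 (6.32%) and 31 of 476 cells (6.51%) at medians of 19971.5 and 21041.5 UMIs. Of both classes together, 1 Control neuron-like cell reached 10 genes. After thinning, 0 of 451 Control and 0 of 453 SC300 neuron-like cells had 5 genes, which allows shares of up to 0.815% and 0.811% by the exact interval.

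Single genes differed in how far they told these classes apart. *Top2a* had a UMI in 5.22% of Control and 4.34% of SC300 precursor-like cells, in 1 Control neuron-like cell and in 0 of the 459 SC300 neuron-like cells. *Mki67* had one in 5.77% and 4.88% of precursor-like cells, in 3.28% and 2.18% of the deeper neuron-like cells and in 0.263% and 0.210% of mature oligodendrocyte-like cells. *Pcna* had a UMI in 49.5% of Control and 57.2% of SC300 precursor-like cells. It was more frequent in the deeper mature oligodendrocyte-like cells, with 84.2% and 88.0%. By level the order was reversed, with 160 and 178 CPM in precursor-like against 126 and 124 CPM in mature oligodendrocyte-like cells. A UMI of *Pcna* thus did not mark a class of dividing cells, while *Top2a* was nearly absent from neuron-like cells.

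**Figure D2:**
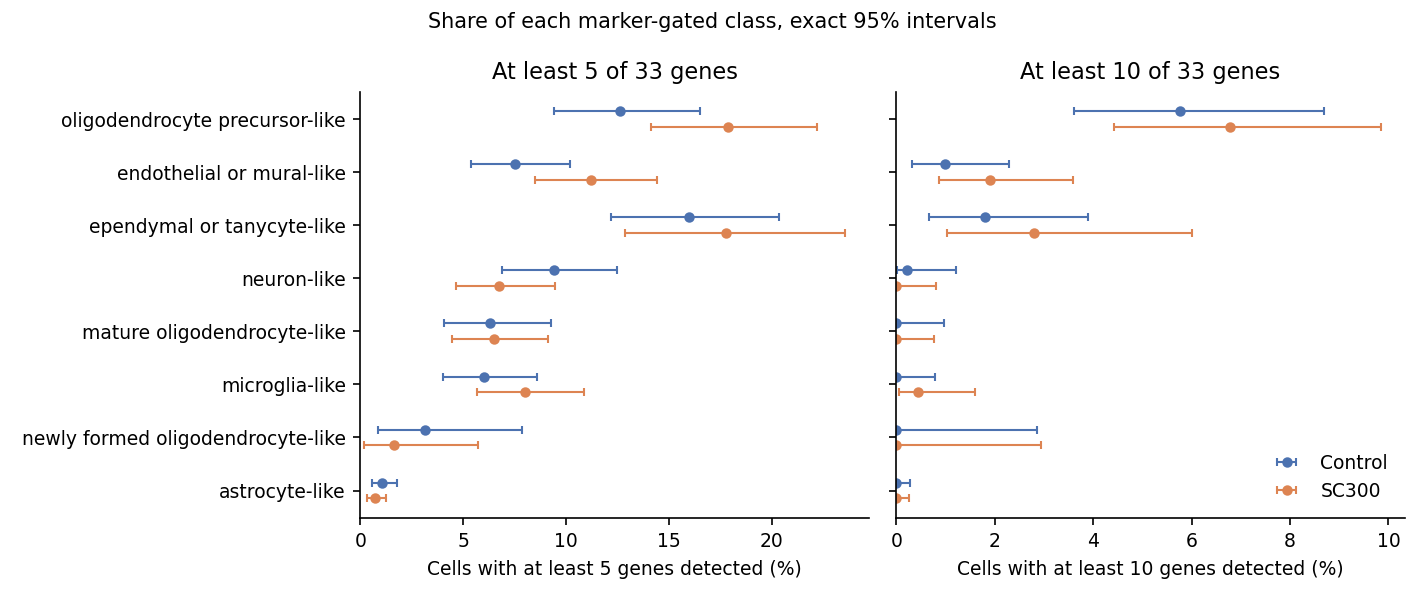
Share of cells (x axis, %) with at least 5 (left) and at least 10 (right) of the 33 genes in each class with at least 100 cells in each library, for Control and SC300; bars are exact 95% intervals. At the limit of 10 genes precursor-like cells stand apart with 5.77% in Control and 6.78% in SC300, while at the limit of 5 ependymal or tanycyte-like cells lie as high.

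Astrocyte-like cells, the most numerous class, had at least 5 genes in 14 of 1323 Control and 10 of 1448 SC300 cells, and none reached 10. Newly formed oligodendrocyte-like cells, the next stage of the lineage after the precursors, had 4 of 127 and 2 of 124 cells with at least 5 genes and 0 with 10, with median depths of 10604 and 11601 UMIs. The exact interval of 0 of 127 cells reached up to 2.86%, and that of 0 of 124 up to 2.93%. The marker score of 27 of 733 precursor-like cells (3.68%) and of 32 of 251 newly formed cells (12.7%) lay within 0.1 of that for a second class. T or NK cell-like cells numbered 9 in Control and 5 in SC300, and 4 and 1 of them had 10 or more genes. The Control cells had 20 to 25 of the genes, with *Mki67* and *Top2a* in each. The SC300 cell among these also carried 7 of 7 endothelial markers and had 50949 UMIs.

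By level, 27 of the 33 genes were highest in precursor-like cells in both libraries, out of the 8 classes. *Cdk1* was at 81.6 CPM (70.4–94) in Control and at 56.8 CPM (48.0–66.7) in SC300 precursor-like cells, and the second class was the endothelial or mural-like one with 12.9 and 26.1 CPM. *Top2a* reached 53.2 CPM and 39.9 CPM, against 13.4 and 17.2 CPM in endothelial or mural-like cells. *Mki67* reached 48.5 and 46.0 CPM, against 15 and 22.2 CPM. Precursor-like cells led the 8 classes for these genes in both libraries, with intervals that did not meet those of the second class. The few T or NK cell-like cells, which are not among the 8, had higher levels in Control and SC300. *Mki67* was at 452 and 299 CPM in them, *Top2a* at 497 and 366 CPM and *Cdk1* at 163 and 193 CPM.

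Most replication genes had the same leading class, with steps of different size. *Mcm6* was at 65.7 CPM in Control and at 93.2 CPM in SC300 precursor-like cells, against 15 and 19.2 CPM in microglia-like cells. *Mcm5* reached 16.7 and 22.2 CPM, against at most 1.41 and 1.94 CPM in the others of the 8 classes. In the few T or NK cell-like cells, which are not among the 8, it was at 36.1 and 57.9 CPM. *Pcna* reached 160 CPM (144–177) and 178 CPM (163–195), and its next class was newly formed oligodendrocyte-like cells in Control (138 CPM) and mature oligodendrocyte-like cells in SC300 (124 CPM). *Rrm1* was about level between precursor-like cells, with 58.0 and 57.9 CPM, and ependymal or tanycyte-like cells, with 50.5 and 59.3 CPM, so its order changed between the libraries.

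The other genes of mitosis with precursor-like cells as the leading class fell into roles. Among spindle genes, *Kif11*, the kinesin that pushes the spindle poles apart, was at 21.5 CPM in Control and at 23.8 CPM in SC300, against 2.82 and 3.99 CPM in the next class. *Nusap1* reached 48.1 and 38.4 CPM, against 7.40 and 11 CPM, and *Tpx2*, which activates Aurora A on the spindle, 31.8 and 28 CPM, against 7.22 and 12.1 CPM. Among cyclins and checkpoint genes, *Ccna2* reached 11.2 and 6.90 CPM, *Ccnb1* 15.5 and 13.8 CPM and *Bub1* 12.9 and 10.4 CPM. *Bub1b*, the BUBR1 kinase, had 9 UMIs in Control and 13 in SC300 precursor-like cells of the 11 and 25 in all cells. *Plk1*, the Polo kinase of mitotic entry, reached 12.0 and 12.3 CPM, *Cdc20* 31.8 and 33.4 CPM, and *Cdca8*, the borealin of the centromere complex, 37.8 and 42.2 CPM. *Cenpe*, the kinesin of the kinetochore, reached 11.59 and 16.49 CPM, and *Birc5*, the survivin of the centromere complex, 24.5 and 18.8 CPM. Among the 8 classes, precursor-like cells led for each of these genes in both libraries, for *Bub1b* on few UMIs.

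The remaining replication genes were closer between classes. *Mcm2* was at 28.8 CPM in Control and at 34.5 CPM in SC300 precursor-like cells, against 17.2 and 19.4 CPM in ependymal or tanycyte-like cells. *Mcm3* reached 23.6 and 25.7 CPM, against 14.1 and 14.0 CPM in microglia-like cells, and *Mcm4* 32.6 and 31.8 CPM, against 10.1 and 9.23 CPM in ependymal or tanycyte-like cells. All of these encode subunits of the MCM helicase. *Mcm7* reached 39.1 and 42.6 CPM, and its next class was newly formed oligodendrocyte-like cells in Control (32.2 CPM) and mature oligodendrocyte-like cells in SC300 (18.9 CPM). *Tyms*, the thymidylate synthase, reached 10.7 and 15.3 CPM, against 8.81 CPM in microglia-like cells of Control and 8.28 CPM in endothelial or mural-like cells of SC300. *Ccne1*, the E cyclin of S phase entry, reached 23.2 and 18.0 CPM, against 13.9 and 8.99 CPM in newly formed oligodendrocyte-like cells. *Rrm2* had 15 UMIs in Control and 22 in SC300 in all, of which 5 and 9 were in precursor-like cells.

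Some genes led elsewhere among the 8 classes. *Kif23*, a kinesin of the midbody that completes cell separation, was highest in endothelial or mural-like cells. It had 17.1 CPM (13.9–20.8) in Control and 21.8 CPM (18.3–25.7) in SC300. Precursor-like cells had 11.2 CPM (7.29–16.4) and 11.1 CPM (7.45–16.0), so the intervals overlapped in Control and did not meet in SC300. *Aurkb*, the kinase of the centromere, had 8 UMIs in Control and 13 in SC300. Of these, 6 and 9 were in ependymal or tanycyte-like cells, and 1 and 2 in precursor-like cells. On so few UMIs the intervals of these classes overlapped, and their order could not be told. *Ube2c*, the ubiquitin carrier of the APC/C, was highest in precursor-like cells in Control (61.8 CPM), while in SC300 precursor-like (31.8 CPM) and endothelial or mural-like cells (33 CPM) had intervals that overlapped.

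**Figure D3:**
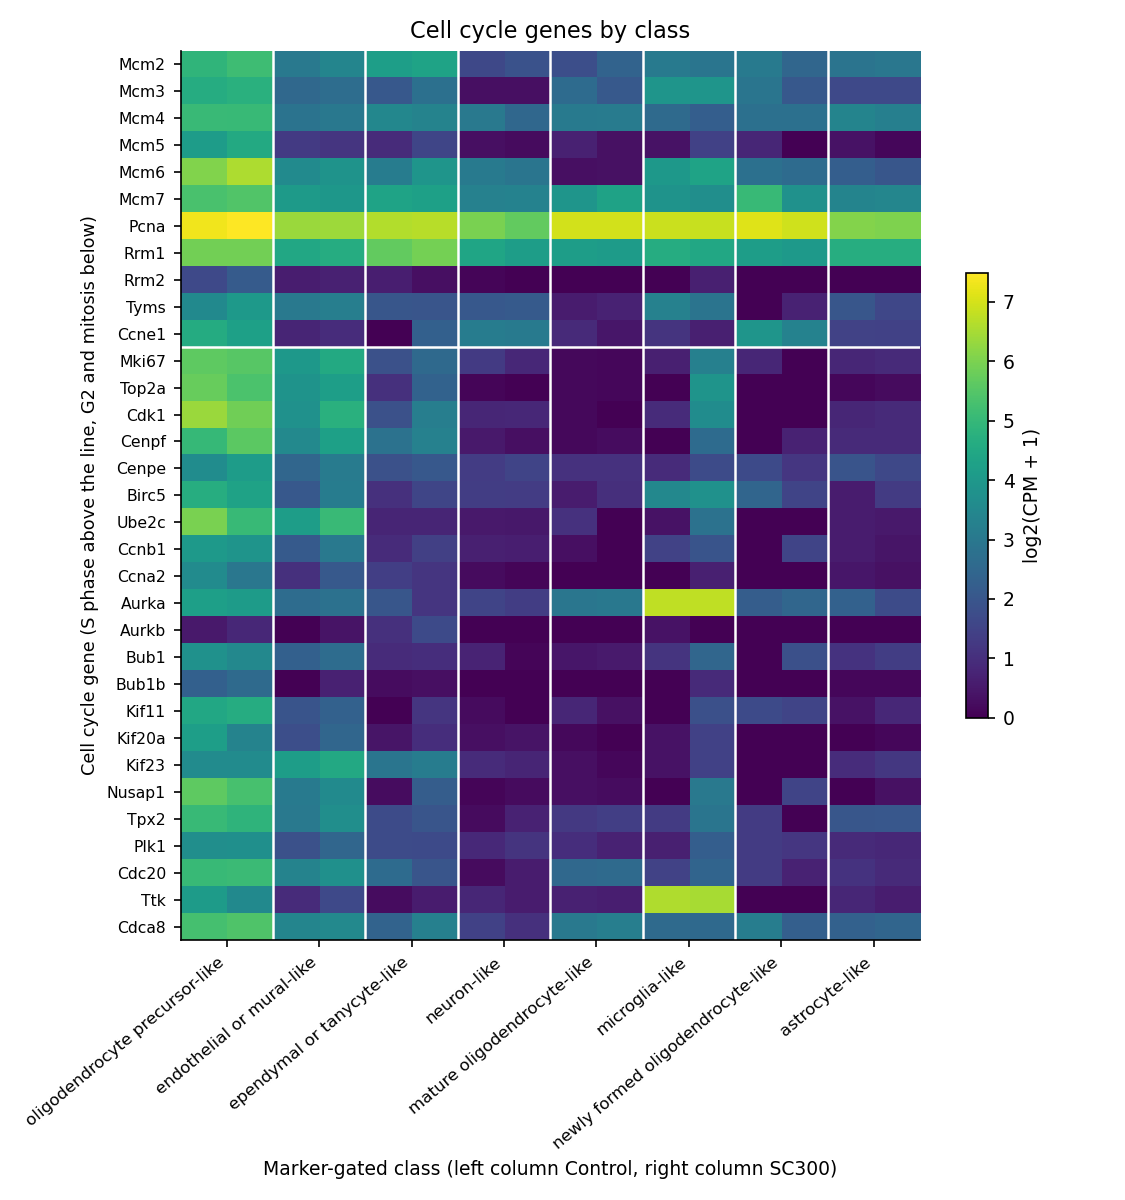
Level of each of the 33 genes, as log2(CPM + 1) by colour, in the 8 classes (left column Control, right column SC300), with S phase genes above the line and genes of G2 and mitosis below. Precursor-like cells are brightest for most genes, and *Aurka* and *Ttk* stand out in microglia-like cells of both libraries.

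Among the 8 classes, *Aurka* and *Ttk* were highest in microglia-like cells. *Aurka* was at 108 CPM (97.0–119) in Control and at 107 CPM (96.9–119) in SC300 microglia-like cells, against 17.6 and 16.1 CPM in precursor-like cells. *Ttk* reached 96 CPM (85.9–107) and 90.3 CPM (80.6–101), against 16.3 and 10.7 CPM. Microglia-like cells held 61.5% of the *Aurka* UMIs of the Control library and 60.9% of those of the SC300 library, and 80.3% and 81.8% of the *Ttk* UMIs.

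The UMIs of both kinases were spread over many microglia-like cells. *Aurka* was found in 214 of 466 Control cells (45.9%) and 235 of 451 SC300 cells (52.1%), and *Ttk* in 213 (45.7%) and 211 (46.8%). Both were found together in 106 and 111 cells. *Mki67* was found in 2 Control and 3 SC300 microglia-like cells and *Top2a* in 0 and 4, and 10 or more genes were found in 0 and 2. *Aurka* and *Ttk* thus came without *Mki67* and *Top2a* in nearly all of these cells. At similar depths, *Ttk* had a UMI in 0.605% of Control and 0.276% of SC300 astrocyte-like cells, whose medians were 6331 and 6534 UMIs against 7167 and 7739 UMIs in microglia-like cells.

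Most microglia-like cells lay in 2 clusters, cluster 6 (218 Control and 214 SC300 cells), led by *Tmem119* among others, and cluster 11 (197 and 193 cells), led by *Il1b* and *Ccl4* among others. *Aurka* was at 102 CPM in Control and at 118 CPM in SC300 in cluster 6, and 118 and 103 CPM in cluster 11. *Ttk* reached 98.4 and 95.9 CPM in cluster 6, and 98.5 and 85.9 CPM in cluster 11, so both kinases were present in both clusters. In 14 Control and 41 SC300 macrophage-like cells, *Aurka* had 1 UMI in each library and *Ttk* had 4 and 2.

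In the RefSeq annotation of GRCr8 the span of *Aurka* overlaps the end of *Fam210b* and lies beside *Cstf1*, while *Ttk* has no neighbour within 3 kb. Both neighbours were chosen after their values were seen. *Fam210b* was at 25.5 CPM in Control and at 23.8 CPM in SC300 microglia-like cells, against 0.429 and 1.53 CPM in precursor-like cells. *Cstf1* reached 17.6 and 19.8 CPM, against 18.9 and 21.1 CPM. The authors counted on another annotation, and the part of this overlap in the *Aurka* counts was not tested.

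The summed level of the other 20 genes of G2 and mitosis was 25.5 CPM (20.5–31.5) in Control and 102 CPM (91.4–113) in SC300 microglia-like cells. In the microglia-like cells with fewer than 10 genes it was 25.5 and 23.5 CPM, so the SC300 excess sat in the 2 cells with 10 or more genes. Those cells had 13 and 29 of the genes, with a median of 7 of 8 microglia markers and 2 of 7 precursor markers detected. Microglia-like cells with 10 or more genes were 0 of 466 in Control, where the exact interval reaches up to 0.788%.

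The precursor-like cells were followed in more detail by the number of genes detected. Those with 10 or more genes had a summed level of all 33 genes of 9131 CPM (8706–9572) in Control and 8321 CPM (7933–8723) in SC300. The level was 1722 and 1337 CPM in those with 5 to 9 genes, and 232 and 267 CPM in those with 0 to 4. *Mki67* had a UMI in 17 of the 21 cells with 10 or more genes in Control and in 18 of the 25 in SC300, *Top2a* in 15 and 15, and *Cdk1* in 19 and 24. Among the 303 SC300 precursor-like cells with 0 to 4 genes, *Mki67* was found in 0, and among the 318 Control ones in 3. No cell with 10 or more genes was called as a doublet, while 0 of 25 Control and 4 of 41 SC300 cells with 5 to 9 genes were.

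Markers of other cell types were set beside those of precursors in the precursor-like cells with 10 or more genes. The precursor markers summed to 4151 CPM in Control and 4047 CPM in SC300, with a median of 6 of 7 detected per cell. The microglia list (8 markers) summed to 15.8 and 19.3 CPM, the endothelial list (7 markers) to 10.6 and 24.1 CPM, and the T or NK cell list (8 markers) was at 0 in both. The neuronal list (8 markers) summed to 142 CPM in Control and 372 CPM in SC300, with medians of 1 and 2 of 8 detected. The list of newly formed oligodendrocytes summed to 770 and 749 CPM, and the astrocyte list to 153 and 155 CPM. The stromal (fibroblast) list summed to 243 and 246 CPM, the tanycyte list to 116 and 91.8 CPM, and the ependymal list to 52.8 and 96.6 CPM. The part of these markers in the differences between the libraries was not tested.

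The cells differed in the phase of the cycle they showed. Among the precursor-like cells with 10 or more genes, 11 Control and 15 SC300 cells had at least 10 of the 22 genes of G2 and mitosis. At the other end, 4 Control and 2 SC300 cells had fewer than 5 of them. Control cells had 1 to 10 of the 11 S phase genes with a median of 7, and the SC300 median was also 7. One Control cell with 18 genes of mitosis and 1 S phase gene, and another with 3 genes of mitosis and 7 S phase genes, mark the range in Control. In SC300 it ran from a cell with 18 genes of mitosis and 0 S phase genes to a cell with 1 and 9. The libraries overlapped over this range.

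**Figure D4:**
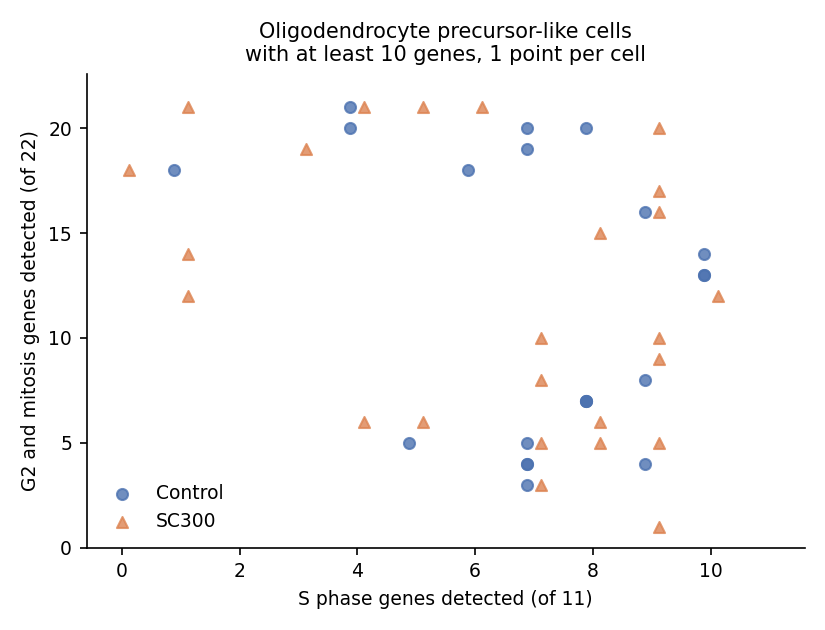
Each point is an oligodendrocyte precursor-like cell with 10 or more genes (21 Control circles, 25 SC300 triangles), placed by the number of S phase genes (x axis, of 11) and of genes of G2 and mitosis (y axis, of 22) detected in it, with the symbols set slightly apart for each library. Both libraries hold cells with few and cells with many genes of mitosis, and 11 Control and 15 SC300 cells lie at 10 genes of mitosis or above.

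Genes outside the list that went with the program were looked for among the precursor-like cells, by comparing those with at least 5 genes (46 Control and 66 SC300 cells) with those with fewer. Genes needed 20 UMIs in the former in each library. Of these, 11 had 0 UMIs in the cells with fewer genes of a library and were left out of the ranking, since their ratio has only a lower bound. With 0 set to 3 UMIs, the bounds of *Sgo2* and *LOC100359539* lay above the last of the 10 genes named here. The 10 with the highest ratio, ranked by the lower of both libraries, were *Prc1*, *Kifc1*, *Cenpw*, *Cdca3*, *Knstrn*, *AABR07000658.1*, *Spc24*, *Tcf19*, *Ckap2* and *Aspm*. *Prc1*, which bundles the microtubules of the late spindle, reached 356 CPM against 1.52 CPM in Control and 237 CPM against 0.483 CPM in SC300. *Kifc1*, a kinesin that gathers the spindle poles, reached 141 against 0.506 CPM and 102 against 0.483 CPM. *Spc24*, a part of the kinetochore, reached 153 against 1.01 CPM and 132 against 1.45 CPM. These genes were chosen for their ratio, and the cells were chosen by cell cycle genes, so the ratios are a description with no test.

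Lists of further cell cycle genes were set beside this, counting genes with at least 50 UMIs that were over 1.5-fold higher or lower in both libraries. A count of 0 was set to 3 UMIs. Of all 8168 genes outside the 33 that reached this number of UMIs, 5.23% were higher and 3.57% lower. Of the 34 genes of an S phase list, 21 reached it and all 21 were higher, with a median log2 ratio of 2.85 in Control and 2.62 in SC300, against −0.06 and −0.02 over all these genes. Of the 31 genes of a G2 and M list, 16 reached it and all 16 were higher, with medians of 5.70 and 5.01. The cells had been chosen by genes of the same phases. Several genes of both lists also reached 50 UMIs only through the chosen cells, which by itself favours a higher ratio. *Ndc80*, for one, had 29 UMIs in them in Control and 35 in SC300, and 0 and 1 in the cells with fewer genes. These counts are thus a description with no test. *Hmgb2*, a chromatin protein of dividing cells, reached 1331 CPM against 44.0 CPM in Control and 769 CPM against 42.5 CPM in SC300. *Fen1*, the nuclease that trims Okazaki fragments, reached 141 against 7.59 CPM and 108 against 9.66 CPM.

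A list of 25 genes of G1 and of exit from the cycle was counted in the same way. Of its genes 15 reached 50 UMIs, 2 were higher, 1 was lower, and 12 passed the limit in neither direction in both libraries. The higher ones were *Cdk2*, the kinase of S phase entry (138 against 62.3 CPM in Control and 98.7 against 48.8 CPM in SC300), and *Cdkn2c*. *Cdkn2c*, the p18 inhibitor of CDK4 and CDK6, reached 223 against 14.2 CPM in Control and 128.5 against 9.66 CPM in SC300. The lower one was *Cdkn1c*, the p57 inhibitor of the CDKs, with 81.9 against 243 CPM and 127 against 239 CPM. *Ccnd1*, the D cyclin of G1, had log2 ratios of 0.41 and 0.15 and did not pass the limit.

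The identity of the cells was compared in the same way. Of the precursor markers, 7 reached 50 UMIs and none passed the limit. With 10 or more genes in place of 5, an alternative chosen after the data were seen, 2 of the 7 were lower, where 7.8% of all 7888 genes were higher and 7.58% lower. They were *C1ql1*, with log2 ratios of −0.77 in Control and −0.74 in SC300, and *Matn4*, with −0.72 and −0.66. The values that follow are again from the limit of 5 genes. *Pdgfra*, the receptor that keeps precursors dividing, had 1447 against 1445 CPM in Control and 1373 against 1280 CPM in SC300. Of the markers of newly formed oligodendrocytes, 5 reached 50 UMIs, and *Gpr17*, *Bmp4* and *Bcas1* were lower. *Bcas1* had 308 against 646 CPM in Control and 348 against 641 CPM in SC300, and *Bmp4* had 116 against 264 CPM and 39.1 against 108 CPM. Of 5 genes of neural progenitors and neuroblasts that reached 50 UMIs, none passed the limit. Markers of the next stage were part of the gate, and genes used for the gate are given as a description.

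Between the libraries, levels were compared for genes with at least 50 UMIs in both libraries together and a limit of 1.5-fold. Over all cells, 30 of the 33 genes reached 50 UMIs, 1 was over the limit in SC300 and 0 were under it. *Aurkb*, *Bub1b* and *Rrm2* did not reach it. Of all 14201 genes with as many UMIs, 2.77% were higher and 3.75% lower. The 1 gene was *Cenpf*, a protein of the kinetochore, with 202 UMIs in Control and 334 in SC300 (log2 ratio 0.59, 0.33 to 0.85). Over the 30 genes the median log2 ratio was 0.18, against −0.04 over all genes, and 22 of them lay above 0, as did 38.3% of all genes. The summed level of the 33 genes was 252 CPM (248–257) in Control and 264 CPM (260–268) in SC300. The difference in level over all cells was thus small for most of the genes.

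In precursor-like cells, 29 of the genes reached 50 UMIs, and *Ccna2*, *Aurkb*, *Bub1b* and *Rrm2* did not. *Cenpf* was the 1 gene over the limit, with 31.3 CPM in Control and 47.2 CPM in SC300, where 2.85% of all 8197 genes were higher. *Ube2c*, *Kif20a* and *Ttk* were under it, where 2.34% of all genes were lower. *Ube2c* had 61.8 CPM in Control and 31.8 CPM in SC300 (log2 ratio −0.96, −1.36 to −0.56). *Kif20a*, a kinesin of cell separation, had 17.2 and 9.21 CPM (log2 ratio −0.90, −1.69 to −0.13). *Ttk* had 16.3 and 10.7 CPM (log2 ratio −0.60, −1.36 to 0.14), with an interval that included 0. The median over the 29 genes was −0.0048 against −0.02 over all genes, so the median of the list lay close to that of all genes.

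Within precursor-like cells the S phase genes summed to 460 CPM (433–489) in Control and 523 CPM (496–552) in SC300, and the genes of G2 and mitosis to 601 CPM (570–634) and 519 CPM (492–547). *Mcm6* had a log2 ratio of 0.51 (0.21 to 0.81) and *Cdk1* one of −0.52 (−0.84 to −0.21). Few cells carried these sums, as 10 cells held 84.9% of the UMIs of mitosis genes in Control and 75.2% in SC300. Leaving out the cell with the most UMIs of the 33 genes in each library, an alternative chosen after the data were seen, gave 2 genes over the limit and 1 under it of 27, against 2.79% and 2.33% of all genes. Classes from clusters gave 4 and 1 of 30, against 2.64% and 2.59%. The log2 ratio of the summed level of all 33 genes went from −0.03 to 0.83 in cells with up to 10% mitochondrial UMIs.

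In endothelial or mural-like cells, 23 of the genes reached 50 UMIs, 7 were over the limit in SC300 and 0 under it, where 3.85% of all 9183 genes were higher and 2.73% lower. The 7 were genes of G2 and mitosis. Of the 23 genes 22 lay above 0, as did 52.6% of all genes. *Cdk1* had 12.9 CPM in Control and 26.1 CPM in SC300 (log2 ratio 1.02, 0.62 to 1.44), and *Ube2c* 16.9 and 33 CPM (0.96). *Birc5* had 3.17 and 7.82 CPM (1.30), and *Ccnb1*, the cyclin partner of CDK1, 3.35 and 7.21 CPM (1.11). The others were *Cenpf* (0.81), *Tpx2* (0.75) and *Cenpe* (0.74). The S phase genes summed to 158 CPM in Control and 168 CPM in SC300 and the genes of mitosis to 149 and 238 CPM, so the difference lay in the genes of mitosis. With a minimum of 100 UMIs 4 of 15 genes were over the limit, against 2.34% of all genes, and at 2-fold 3 of 23, against 0.98%. With a minimum of 20 UMIs 10 of 27 were over it, against 5.96%, and with classes from clusters 8 of 23, against 2.96%. Leaving out the cell with the most UMIs of the 33 genes in each library gave 10 of 21, against 3.97%. That last alternative was chosen after the data were seen.

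Few cells carried this difference as well. In endothelial or mural-like cells 10 cells held 68.0% of the UMIs of mitosis genes in Control and 77.8% in SC300, and the cells with 10 or more genes numbered 5 and 9. These had medians of 43016 and 55969 UMIs, and 1 and 0 were called as doublets. They carried a median of 7 of 7 endothelial markers in both libraries, and 6 of 8 mural markers in Control and 5 of 8 in SC300. The 72 Control and 96 SC300 cells of the class with fewer than 10 genes and at least 20000 UMIs also carried medians of 7 endothelial and 5 mural markers. Of the cells with 10 or more genes, 4 Control and 8 SC300 cells lay in cluster 9, led by *Kcnj8* and other mural genes. Whether such a cell is 1 cell or cells of both types held together was not tested.

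**Figure D5:**
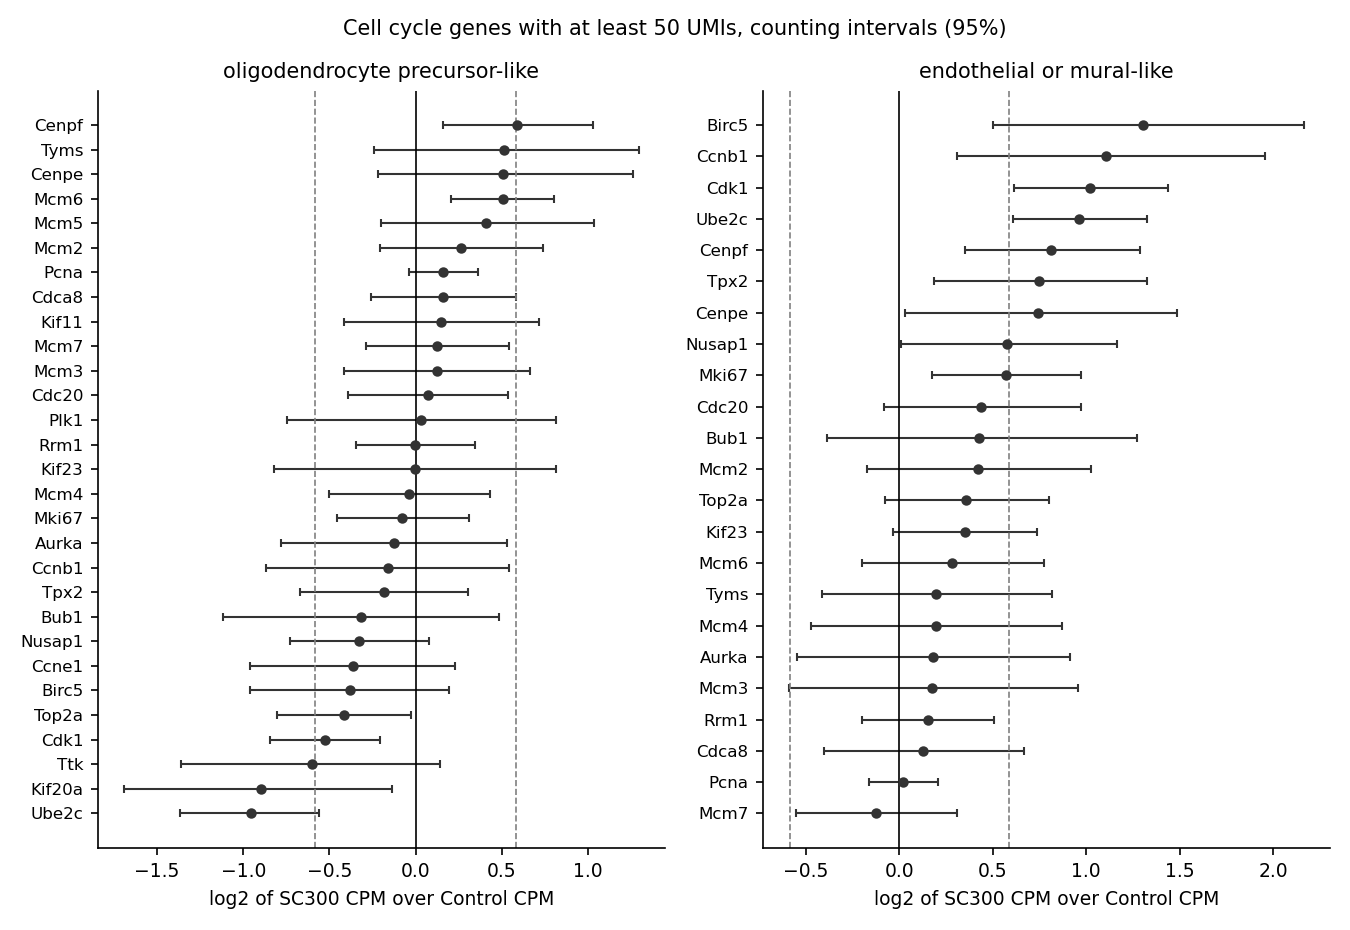
Log2 ratio of SC300 over Control (x axis) for each of the genes with at least 50 UMIs in both libraries together, in precursor-like cells (left, 29 genes) and endothelial or mural-like cells (right, 23 genes). Bars are exact 95% intervals for counting error, the solid line marks no difference and the dashed lines a 1.5-fold difference; in precursor-like cells the genes lie on both sides of 0, and in endothelial or mural-like cells 22 of 23 lie above 0.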

How the data were processed

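Single-cell RNA was measured in 1 Control and 1 SC300 library. The authors deposited raw counts of UMIs per gene and cell barcode, made with Cell Ranger (version 3.0.1 in the submitters' processing notes) on the Ensembl transcriptome. Whether their merging step changed the counts is not given in the sources used here. The files list 4488 Control and 4524 SC300 barcodes, and those with at least 200 detected genes were kept. Each cell was scored for the marker lists as the mean log-normalized value, scaled to the 20 highest cells of a list. The best list was taken where at least 3 of its markers were detected and the scaled score reached 0.25, and other cells stayed unassigned (307 Control and 279 SC300). Cells within 0.1 of a second class were counted as near the gate. Doublets were called with Scrublet. Clusters, used to describe classes and as an alternative, were made with 42 cell cycle genes left out of the variable genes. Counts were summed per class and scaled to CPM. With 1 library per group no test was made. Intervals are Clopper-Pearson for shares, Poisson for CPM and conditional binomial for ratios. Named were all 33 genes, the 10 genes with the highest ratio in cells with at least 5 genes, and the lists by counts. The members and lists were chosen with earlier results of these data known. Scripts were tested on simulated data. The tools were scanpy 1.11.5, scipy 1.17.1, numpy 2.4.6 and pandas 2.3.3 under Python 3.11.15.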

Additional observations from a re-analysis of the deposited data

How the results depend on the processing

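Of 215 values recomputed under other settings, 173 stayed within the limits set for them. Where the main interval of a ratio included 0, these limits allowed a value of the opposite sign. The count thus does not show that the direction was kept in every case. The log2 ratio of the share of all cells with at least 5 genes stayed above 0 under all 9 alternatives, from 0.05 to 0.27, and that of precursor-like cells under all 11, from 0.23 to 1.19. No paired analysis was possible because each group holds 1 library. Alternatives chosen after seeing the data were the limit of 10 genes for the comparison within precursor-like cells, its combination with doublets left out, leaving out the vessel, T or NK, stromal and ependymal classes, and leaving out the cell with the most UMIs of the 33 genes in each library. The cause of the moves below was not tested unless stated.

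In cells with up to 10% mitochondrial UMIs, the log2 ratio of shares was 1.19 in precursor-like and −1.87 in ependymal or tanycyte-like cells, and that of summed levels was 0.35 over all cells, −0.35 in neuron-like, −0.15 in astrocyte-like, 0.83 in precursor-like and 0.14 in endothelial or mural-like cells. In ependymal or tanycyte-like cells it turned from 0.26 to −0.47. Of the SC300 cells with at least 5 genes, 28.9% were then precursor-like and 14.5% endothelial or mural-like. Classes from clusters turned the summed level from 0.26 to −0.069 in ependymal or tanycyte-like and from 0.20 to −0.086 in microglia-like cells, and gave 0.27 in precursor-like cells, with 4 genes over and 1 under the limit of 1.5-fold. Weighting every cell alike gave 0.17 in precursor-like cells, and median-of-ratios scaling 0.11 over all cells.

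The share of the cells that was precursor-like was 8.60% in Control and 11.3% in SC300 at a limit of 3 genes, 55.3% and 56.8% at 10, and 75% and 72.2% in thinned cells. The endothelial or mural-like share was 7.14% and 13.9% in thinned cells, and 13.5% in SC300 at 3 genes. The log2 ratio of the endothelial or mural-like share was 1.40 in thinned cells and 1.26 at 10 genes without doublets. That of the neuron-like share turned from −0.48 with at least 5 genes to 0.58 with at least 3 genes of mitosis. Over all cells 2 genes were higher with a minimum of 20 UMIs and 0 at 2-fold. In precursor-like cells 0 were higher at 2-fold or with a larger gate margin, and 2 without the cell with the most UMIs. Lower there were 0 at 2-fold and 1 with a minimum of 100 UMIs or without that cell. In endothelial or mural-like cells 4 were higher at 100 UMIs and 3 at 2-fold. In thinned precursor-like cells 6 of the S phase list, 3 of the G2 and M list and 1 of the G1 list were higher, where 6, 4 and 10 genes of these lists reached 50 UMIs. Over the settings for levels of SC300 over Control, between 0.268% and 5.96% of all genes were past the limit in 1 direction. At the lowered depth, 28 Control and 36 SC300 cells kept 5 genes.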
